A study of Mus musculus with 15 samples.

Results

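A set of 37 macrophage and antigen presentation genes was followed across the 15 mouse heart libraries. Its members were the rows of the expression table whose Ensembl identifiers map to a list of macrophage, Fc receptor and major histocompatibility complex (MHC) class II gene symbols, and all 37 were found among the 36653 identifiers. Each library held poly(A)-selected RNA from the ventricle of a wild-type C57BL/6 mouse aged 10 weeks, with 5 biological replicates in each of 3 groups. Vehicle mice received saline. AngII mice had a pump under the skin that released angiotensin II, the pressor peptide of the renin-angiotensin system, at 1000 ng/kg/min. AngII plus OA mice had this pump as well and were dosed daily with oleic acid (OA), the main fatty acid of olive oil, at 160 mg/kg (0.3 mL for each mouse). Treatment length is not given in the sources at hand. Values are the deposited FPKM (fragments per kilobase of gene, scaled by library size), so levels can be compared between genes. Values per library are listed from replicate 1 to replicate 5.

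Macrophages are the main leukocytes of the mouse heart. Resident macrophages, seeded largely before birth, are recognised by Lyve1, Timd4, Folr2, Cd163 and Mrc1, whereas cells recruited from blood monocytes carry the chemokine receptor Ccr2. Both kinds engulf debris through Fc and scavenger receptors and can display peptides to CD4 T cells on MHC class II molecules. In whole ventricle these transcripts are a small part of the RNA, and fewer cells of a type cannot be told apart from less RNA per cell.

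The most abundant member in vehicle hearts was Lyz2, which encodes lysozyme, at 180 ± 38.8 FPKM (SD, n = 5), followed by Cd74 at 70.7 ± 12.5. The pan-macrophage markers Csf1r, Cd68 and Adgre1 were above 0 in every library. Of other cell types in the ventricle, the 6 genes of a T cell list summed to 0.602 to 2.97 FPKM over the 15 libraries and 5 endothelial genes to 167 to 269, so the set was read in a mixture of cells. Members detected weakly were Siglec1 (0.371 ± 0.167 FPKM in vehicle), Cx3cr1 (0.412 ± 0.299), Gpnmb (0.444 ± 0.135) and Folr2 (0.586 ± 0.103). Siglec1 fell under the minimum mean of 0.5 FPKM over the 15 libraries and was not tested, which left 36 members among 13121 tested genes.

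Library AngII replicate 2 stood apart from the other AngII libraries. It had the highest level of its group in 11 members and the lowest in 10. Summed markers of other tissues were also high there, at 3012 FPKM for 4 atrial muscle genes against at most 749 in the other 14 libraries, 277 for 4 adipocyte genes against at most 81.5, and 73.5 for 3 mesothelial genes against at most 12.5. Its 7 B cell genes summed to 53.6 FPKM against at most 12.4 elsewhere, and its 6 cardiomyocyte genes to 8477 against at least 15237 in vehicle and 16738 in AngII plus OA libraries. The part of this tissue makeup in the members' values was not tested. AngII replicate 3 was the lowest of its group in 19 members, vehicle replicate 1 in 22 and AngII plus OA replicate 2 in 22. FPKM denominators, recovered from the steps between values, were 24.5 to 28.3 M reads. Mitochondrially encoded genes took 44.6% to 50.02% of the FPKM in vehicle libraries. Their share was 34.5% to 42.8% in AngII replicates 1, 3, 4 and 5, 48.3% in AngII replicate 2, and 38.6% to 47.02% in AngII plus OA libraries. It thus differed between groups, and its part in the members' values was not tested beyond the fits with FPKM rescaled without these genes.

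**Figure D1:**
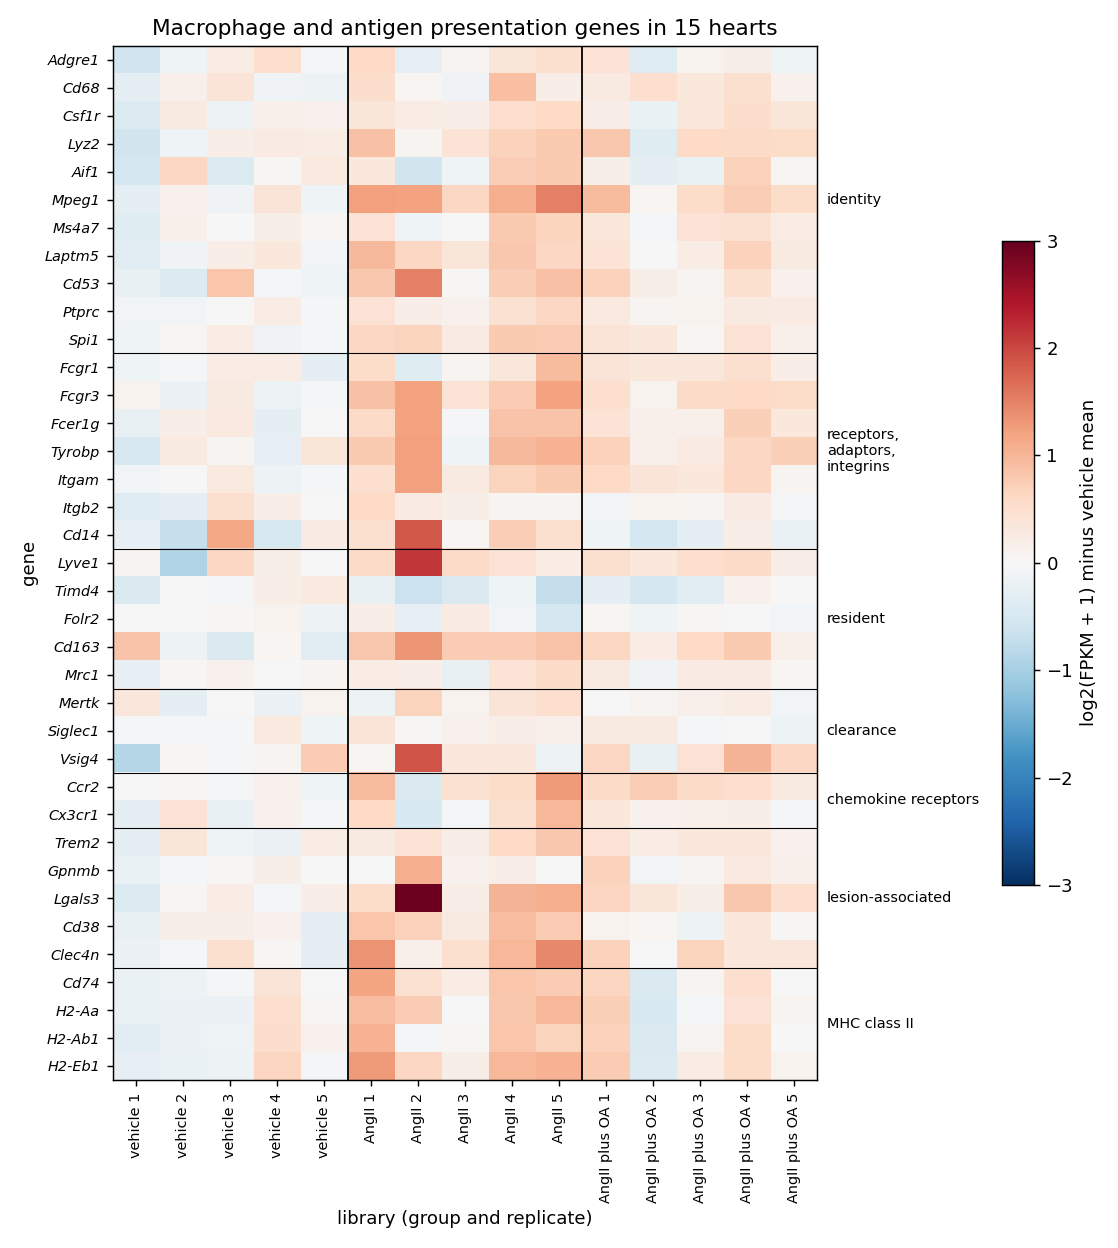
Level of each of the 37 members (rows) in each of the 15 libraries (columns, grouped as vehicle, AngII and AngII plus OA), as the difference in log2(FPKM + 1) from the gene's mean in vehicle. AngII columns are mostly above the vehicle mean, and AngII replicate 2 holds both the highest level of its group in 11 members and the lowest in 10.

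AngII against vehicle asks which of these transcripts changed under the hormone. Of 36 members tested, 7 were higher in AngII hearts and 0 were lower at an adjusted p under 0.05 (limma with Benjamini-Hochberg adjustment over all genes), where 1.27% and 0.236% of all genes were called higher and lower. The 7 were the macrophage pore-forming protein gene Mpeg1, the low-affinity immunoglobulin receptor gene Fcgr3, the transcription factor gene Spi1, the NAD-consuming ectoenzyme gene Cd38, the lysosomal protein gene Laptm5, the integrin gene Itgam and the haemoglobin scavenger receptor gene Cd163. At an unadjusted p under 0.05, 22 members were higher and 1, Timd4, was lower, against 13.3% and 3.29% of all genes. The difference was above 0 for 34 of 36 members and for 65.7% of all genes, with Timd4 and Folr2 as the exceptions under each of the 5 settings of scaling and pseudocount. Its median over the members was 0.57 on the log2(FPKM + 1) scale and 0.07 over all genes. In 5 members (Mpeg1, Laptm5, Spi1, Fcgr3 and Cd38) every AngII library was above every vehicle library, as in 3.13% of all genes, and in 0 members all were below (0.663%).

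The number of members called in this comparison depended on single libraries. Without AngII replicate 3 it was 15 of 36 (41.7%, against 2.79% of all genes called higher in the same fit) and without AngII replicate 1 it was 3 (8.33% against 0.579%). It was 2 (5.56%) without AngII replicate 4, AngII replicate 5 or vehicle replicate 5, where 0.45%, 0.328% and 0.328% of all genes were called higher. Without vehicle replicate 2 or 4 it was 4 (11.1%, against 0.533% and 0.457%). Mpeg1 and Fcgr3 were called in each of the 10 fits that left out a library. With only the 10 libraries compared, these were the 2 members called, and without a filter on low values Spi1 was called beside them. Over all genes, 166 were called higher and 31 lower, a split that became 103 and 57 when libraries were shifted to a common median, 69 and 40 after quantile normalization, and 77 and 37 when FPKM was rescaled without mitochondrial genes.

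**Figure D2:**
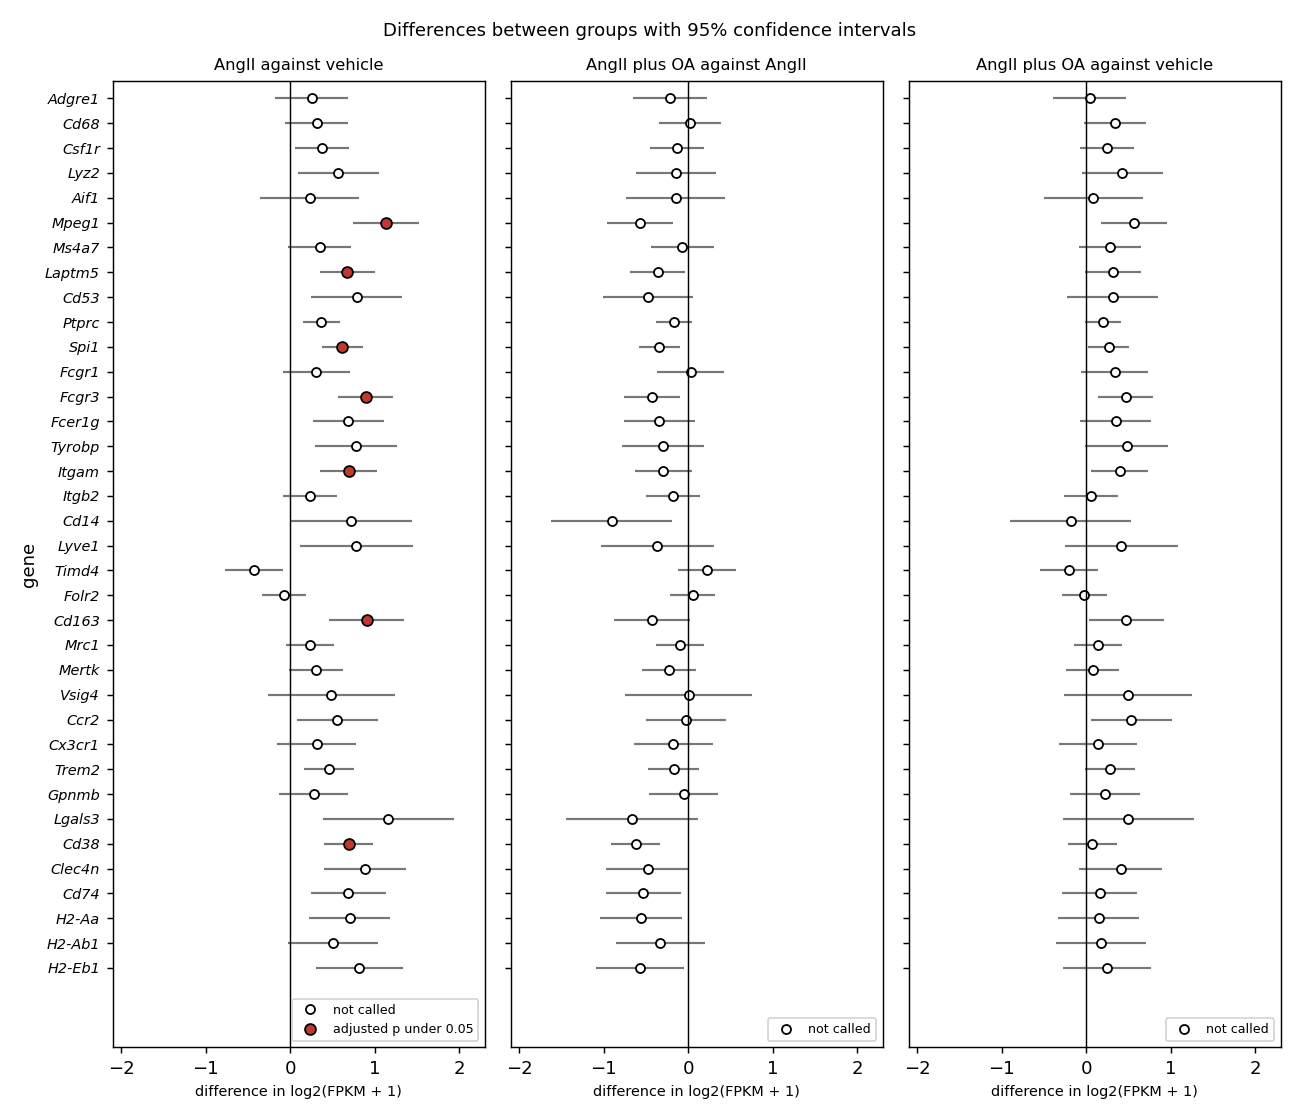
Differences between groups in log2(FPKM + 1) for the 36 tested members with 95% confidence intervals, in a panel for each of the 3 comparisons. Filled points mark the 7 members called in AngII against vehicle; no member was called in either panel with AngII plus OA.

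AngII plus OA against AngII asks what daily dosing with oleic acid added to the pump. The labels list 0 mL of oleic acid for AngII mice and no mock dose is described here. Oleic acid itself cannot be told apart from its dosing. No member was called by limma, and none of the 13121 tested genes was (0%). The difference was below 0 for 31 of 36 members (29 to 32 over the same 5 settings), the exceptions being Timd4, Folr2, Fcgr1, Cd68 and Vsig4, with 36.6% of all genes above 0. Its median was -0.26 over the members and -0.05 over all genes. All 6 cardiomyocyte markers differed upward here (median 0.34) and all 6 fibroblast markers downward (median -0.28), without a call, and their part in the members' values was not tested. AngII replicate 2, with its low cardiomyocyte sum of 8477 FPKM, is among the AngII libraries of this comparison. At an unadjusted p under 0.05, 9 members were lower and 0 higher, against 5.25% and 1.35% of all genes. In 0 members did the groups fail to overlap, in either direction (1.04% of all genes lower, 0.229% higher). The 9 were Cd38, Mpeg1, Spi1, Fcgr3, Cd14, Cd74, H2-Aa, H2-Eb1 and Laptm5. In AngII plus OA against vehicle, again no member and no gene (0%) was called by limma. There 6 members were higher at an unadjusted p under 0.05 (2.58% of all genes) and 0 lower (0.785%), 33 of 36 differences were above 0 (29 with FPKM rescaled without mitochondrial genes, against 58.3% of all genes), and the median was 0.28 over the members and 0.02 over all genes. The comparisons share the AngII or the vehicle libraries, so their values are not independent.

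Among the genes of macrophage and leukocyte identity, 3 of 11 rose under AngII (1.27% of all genes). All 11 differences were above 0 (65.7% of all genes), with a median of 0.38. Mpeg1 (ENSMUSG00000046805) encodes perforin-2, which makes pores in engulfed bacteria. Its level was 2.38, 3.54, 2.89, 4.46 and 2.81 FPKM in vehicle libraries, 8.81, 8.64, 5.35, 7.90 and 10.9 in AngII libraries, and 7.09, 3.34, 5.06, 5.89 and 5.06 in AngII plus OA libraries. Every AngII library exceeded every vehicle library, and 3 of the 5 AngII plus OA libraries lay below the lowest AngII library. Mpeg1 rose from 3.22 ± 0.811 to 8.31 ± 1.98 FPKM (SD, n = 5; log2 difference 1.13, SE 0.18, adjusted p = 0.0127). AngII plus OA stood at 5.29 ± 1.37 FPKM, with a log2 difference from AngII of -0.57 (95% CI -0.96 to -0.18, adjusted p = 0.706) and from vehicle of 0.57 (95% CI 0.18 to 0.96, adjusted p = 1.0).

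Spi1 (ENSMUSG00000002111) encodes PU.1, the transcription factor that specifies the myeloid lineage. In vehicle libraries it was at 1.95, 2.40, 2.76, 2.01 and 2.16 FPKM, in AngII libraries at 3.96, 4.16, 2.87, 4.56 and 4.46, and in AngII plus OA libraries at 3.26, 3.04, 2.36, 3.38 and 2.61. The lowest AngII library, replicate 3, was just above the highest vehicle library. Spi1 rose from 2.255 ± 0.330 to 4.003 ± 0.675 FPKM (SD, n = 5; log2 difference 0.61, SE 0.11, adjusted p = 0.0165), and the call was lost without AngII replicate 4 or 5 or vehicle replicate 4 or 5 (adjusted p up to 0.0584), and with only the 10 libraries compared (0.0557). Its difference in AngII plus OA against AngII was -0.34 (95% CI -0.59 to -0.10).

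Laptm5 (ENSMUSG00000028581), a lysosomal membrane protein gene of blood cells, was at 3.61, 4.47, 5.74, 6.29 and 4.54 FPKM in vehicle libraries, 10.5, 7.95, 6.54, 9.33 and 7.95 in AngII libraries, and 6.81, 4.79, 5.81, 8.51 and 6.05 in AngII plus OA libraries. Vehicle and AngII libraries did not overlap, whereas AngII plus OA libraries overlapped both. It rose from 4.93 ± 1.07 to 8.46 ± 1.53 FPKM (SD, n = 5; log2 difference 0.68, SE 0.15, adjusted p = 0.0387). The call held without AngII replicate 2 or 3 or vehicle replicate 4 and was lost without any of the other 7 libraries (adjusted p up to 0.102). It was also lost after quantile normalization (0.0675), with FPKM rescaled without mitochondrial genes (0.0842), without a filter (0.0879) and with only the 10 libraries compared (0.0904).

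The classical pan-macrophage markers did not pass. Adgre1, the F4/80 antigen, was at 1.41, 2.26, 3.13, 4.06 and 2.46 FPKM in vehicle libraries, 4.34, 1.99, 2.78, 3.56 and 3.995 in AngII libraries, and 3.77, 1.74, 2.81, 3.03 and 2.25 in AngII plus OA libraries, and the groups overlapped throughout. Its log2 difference in AngII against vehicle was 0.26 (95% CI -0.18 to 0.69, adjusted p = 0.567). Csf1r, the receptor for the growth factors that sustain macrophages, was at 6.25, 10.5, 7.71, 9.70 and 9.53 FPKM in vehicle libraries, 11.4, 10.3, 10.0, 12.7 and 13.5 in AngII libraries, and 10.0, 7.37, 11.2, 12.9 and 11.3 in AngII plus OA libraries. Of the AngII libraries, replicates 1, 4 and 5 exceeded the highest vehicle library (log2 difference 0.38, 95% CI 0.06 to 0.70, adjusted p = 0.212). Cd68, a lysosomal glycoprotein gene, was at 7.20, 10.1, 12.1, 8.29 and 8.06 FPKM in vehicle libraries, 13.4, 9.47, 8.33, 17.6 and 10.5 in AngII libraries, and 11.1, 13.2, 11.4, 13.0 and 9.90 in AngII plus OA libraries. Vehicle and AngII overlapped (log2 difference 0.31, 95% CI -0.06 to 0.68, adjusted p = 0.381), and the AngII plus OA mean of 11.7 FPKM was close to the AngII mean of 11.8 (log2 difference 0.02, 95% CI -0.34 to 0.39).

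The other identity genes were Lyz2, the calcium-binding protein gene Aif1, the membrane protein gene Ms4a7, the tetraspanin gene Cd53 and the pan-leukocyte phosphatase gene Ptprc. Their log2 differences in AngII against vehicle ranged from 0.23 (Aif1) to 0.79 (Cd53), with adjusted p from 0.0864 (Ptprc) to 0.726 (Aif1). Lyz2 was at 268 ± 56.5 FPKM in AngII and 247 ± 64.6 in AngII plus OA hearts, against 180 ± 38.8 in vehicle (SD, n = 5). Lyz2 has a near-identical neighbour, Lyz1, and how shared reads were counted is not given, so its level is uncertain.

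**Figure D3:**
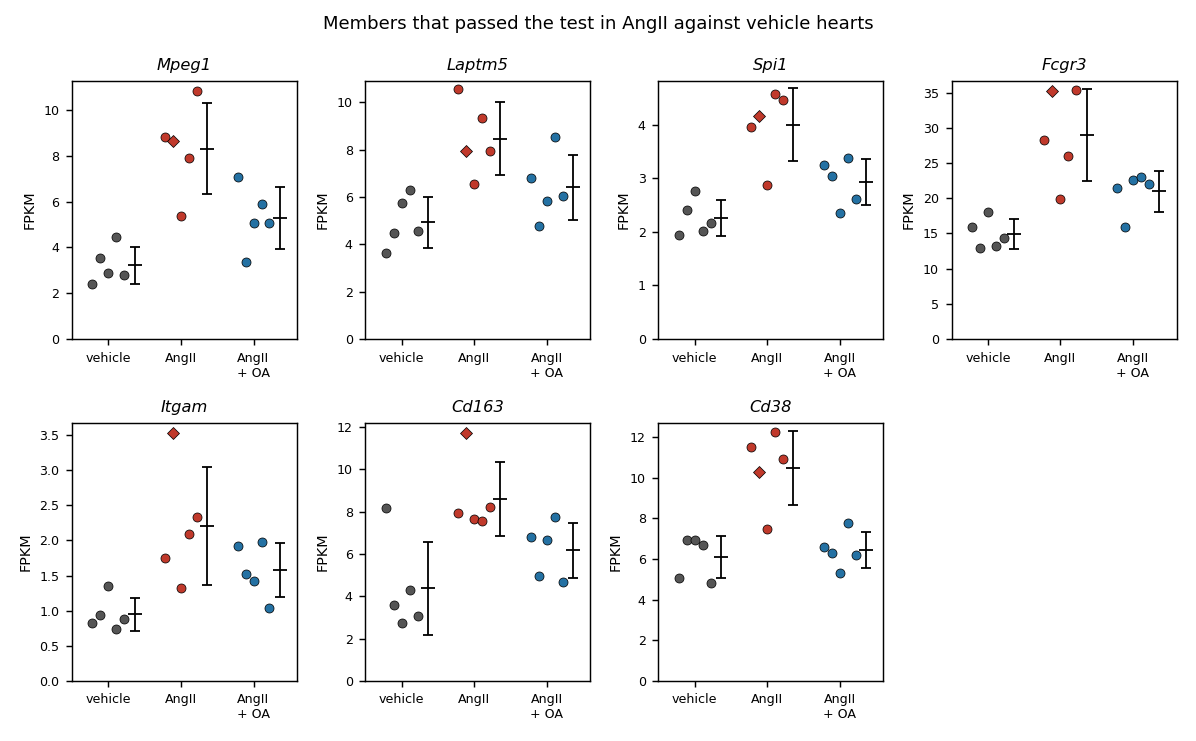
FPKM of the 7 members called in AngII against vehicle, by group, with a point per library and bars for the mean ± SD (n = 5); the diamond is AngII replicate 2. In Mpeg1, Laptm5, Spi1, Fcgr3 and Cd38 the AngII points lie above all vehicle points, and in Itgam and Cd163 AngII replicate 2 is the highest point.

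PU.1 binds purine-rich sites whose core reads GAGGAA. RefSeq promoters (GRCm38.p6, 250 bases before to 50 after the start site) were at hand for 26 members, 6 of them among the 7 called. GAGGAA, searched on both strands, occurred in 12 of those 26 genes (46.2%) and in 31.3% of all 27025 genes in that table. The windows of the 3 called members that hold it are shown so that its place can be seen, with the core in capitals (TTCCTC where it lies on the other strand). Fcgr3 lies on the reverse strand at chr1:171059354-171059653, Laptm5 on the forward strand at chr4:130913066-130913365 and Itgam on the forward strand at chr7:128062390-128062689, each printed 5′ to 3′ along the gene.
Fcgr3: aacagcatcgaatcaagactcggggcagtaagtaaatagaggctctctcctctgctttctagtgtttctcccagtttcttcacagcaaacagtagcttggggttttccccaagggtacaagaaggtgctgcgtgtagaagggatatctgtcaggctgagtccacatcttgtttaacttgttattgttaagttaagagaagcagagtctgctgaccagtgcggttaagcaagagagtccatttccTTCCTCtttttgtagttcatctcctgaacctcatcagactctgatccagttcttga
Laptm5: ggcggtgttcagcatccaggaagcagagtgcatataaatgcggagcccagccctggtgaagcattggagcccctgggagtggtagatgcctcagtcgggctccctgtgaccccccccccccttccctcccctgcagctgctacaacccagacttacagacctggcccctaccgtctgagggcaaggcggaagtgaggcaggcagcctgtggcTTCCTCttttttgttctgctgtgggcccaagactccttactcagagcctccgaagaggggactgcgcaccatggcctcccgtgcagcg
Itgam: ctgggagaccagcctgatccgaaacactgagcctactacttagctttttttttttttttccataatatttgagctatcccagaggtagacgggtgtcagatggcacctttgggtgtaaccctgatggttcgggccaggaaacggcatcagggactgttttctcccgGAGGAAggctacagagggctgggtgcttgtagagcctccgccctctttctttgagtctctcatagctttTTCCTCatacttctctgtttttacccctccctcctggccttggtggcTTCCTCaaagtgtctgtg
Relative to the start site, the core began at -6 in the Fcgr3 window shown, at -38 in Laptm5, and at -84, -15 and 32 in Itgam. From the other Fcgr3 start site in RefSeq, the same core began at -15. A match of these letters is a description and does not show that the factor binds there.

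Among Fc receptors, their adaptors, integrins and the lipopolysaccharide coreceptor, 2 of 7 rose under AngII (1.27% of all genes). All 7 differences were above 0 (65.7% of all genes), with a median of 0.69. Fcgr3 (ENSMUSG00000059498), which binds immunoglobulin G complexes, was at 15.9, 13.0, 18.1, 13.3 and 14.3 FPKM in vehicle libraries, 28.3, 35.3, 19.97, 25.9 and 35.4 in AngII libraries, and 21.5, 15.9, 22.6, 23.1 and 21.98 in AngII plus OA libraries. AngII replicates 2 and 5 were the highest, and no AngII library fell within the vehicle range. It rose from 14.9 ± 2.11 to 29.0 ± 6.56 FPKM (SD, n = 5; log2 difference 0.89, SE 0.15, adjusted p = 0.0146), a ratio of means of 1.94. Its log2 difference was -0.43 in AngII plus OA against AngII (95% CI -0.76 to -0.10, adjusted p = 0.71) and 0.47 against vehicle (95% CI 0.14 to 0.79, adjusted p = 1.0).

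Itgam (ENSMUSG00000030786) encodes CD11b, the alpha chain of the complement receptor integrin of monocytes, macrophages and neutrophils. It was at 0.824, 0.932, 1.35, 0.736 and 0.883 FPKM in vehicle libraries, 1.75, 3.53, 1.32, 2.09 and 2.33 in AngII libraries, and 1.93, 1.52, 1.43, 1.97 and 1.04 in AngII plus OA libraries. AngII replicate 3 lay just under the highest vehicle library, and the other 4 AngII libraries were above it. Itgam rose from 0.946 ± 0.240 to 2.20 ± 0.836 FPKM (SD, n = 5; log2 difference 0.69, SE 0.16, adjusted p = 0.0396). The call held without AngII replicate 2 (log2 difference 0.56, adjusted p = 0.0499), AngII replicate 3 or vehicle replicate 3, and was lost without any of the other 7 libraries (adjusted p up to 0.101). Under each of the 3 other scalings (quantile, a common median, and without mitochondrial genes) the Itgam call was lost too (adjusted p from 0.0675 to 0.0764), as it was without a filter (0.105) and with only the 10 libraries compared (0.112). The 7 neutrophil genes summed to 7.51 to 27.3 FPKM in vehicle, 8.98 to 87.6 in AngII and 7.16 to 97.2 in AngII plus OA libraries, highest within AngII in replicate 2, and 0 of the 4 tested were called or had an unadjusted p under 0.05; their part in the Itgam value was not tested. Itgb2, which encodes the integrin's beta chain, was at 3.30 ± 1.07 FPKM in vehicle and 3.97 ± 0.774 in AngII hearts (adjusted p = 0.465).

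The signalling adaptors carried by activating receptors were among the more abundant members. Tyrobp, which encodes DAP12, was at 21.0 ± 5.06 FPKM in vehicle, 37.6 ± 11.5 in AngII and 29.4 ± 5.41 in AngII plus OA hearts (n = 5, SD; adjusted p = 0.108 in AngII against vehicle). Fcer1g, the common Fc receptor gamma chain, was at 20.4 ± 3.72, 34.5 ± 10.3 and 26.3 ± 4.63 FPKM in the same order (adjusted p = 0.0972). In both genes AngII replicate 3 lay within the vehicle range and the other 4 AngII libraries were above it, and both passed without replicate 3 (Tyrobp adjusted p = 0.00977, Fcer1g adjusted p = 0.0103, against up to 0.232 and 0.216 over the other alternatives). Fcgr1, the high-affinity immunoglobulin receptor gene, was at 1.44 ± 0.362 FPKM in vehicle, 2.15 ± 1.05 in AngII and 2.07 ± 0.233 in AngII plus OA hearts (adjusted p = 0.421). Reads of related Fc receptor genes may be shared between them, and their handling is not given.

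Cd14, the lipopolysaccharide coreceptor gene, was at 7.29, 5.03, 20.8, 6.06 and 10.6 FPKM in vehicle libraries, 12.7, 34.3, 9.18, 15.2 and 12.7 in AngII libraries, and 7.91, 5.83, 7.11, 10.3 and 7.52 in AngII plus OA libraries. A single library was high in each of the first 2 groups, whereas 4 of 5 AngII plus OA libraries lay below the lowest AngII library. Its log2 difference was 0.72 in AngII against vehicle (adjusted p = 0.296; 0.44 without AngII replicate 2) and -0.91 in AngII plus OA against AngII (95% CI -1.62 to -0.19, adjusted p = 0.71; -0.62 without AngII replicate 2).

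Of the 5 markers of resident macrophages, 1 rose under AngII (1.27% of all genes), 2 had a difference above 0 without passing and 2 had a difference below 0. Over all genes 65.7% had a difference above 0. Cd163 (ENSMUSG00000008845), the scavenger receptor for haemoglobin bound to haptoglobin, was at 8.18, 3.60, 2.73, 4.28 and 3.06 FPKM in vehicle libraries, 7.96, 11.7, 7.65, 7.54 and 8.22 in AngII libraries, and 6.79, 4.95, 6.67, 7.73 and 4.69 in AngII plus OA libraries. Vehicle replicate 1 lay within the AngII range, and the other 4 vehicle libraries were below every AngII library. Cd163 rose from 4.37 ± 2.21 to 8.62 ± 1.76 FPKM (SD, n = 5; log2 difference 0.90, SE 0.21, adjusted p = 0.0424). The call held without vehicle replicate 1 (log2 difference 1.12, adjusted p = 0.0147) or AngII replicate 3 and was lost without any of the other 8 libraries, AngII replicate 2 among them (log2 difference 0.80, adjusted p = 0.0681). Each of the 3 other scalings ended the Cd163 call as well (adjusted p from 0.0875 to 0.0959), as did no filter (0.109) and a fit of only the 10 libraries (0.123). In AngII plus OA against AngII its difference was -0.43 (95% CI -0.87 to 0.02), with a mean of 6.17 ± 1.30 FPKM and 4 of 5 AngII plus OA libraries below the lowest AngII library.

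Timd4 (ENSMUSG00000055546), a phosphatidylserine receptor with which resident macrophages bind dying cells, differed in the opposite direction. It was at 0.865, 1.499, 1.42, 1.87 and 2.10 FPKM in vehicle libraries, 1.17, 0.617, 0.846, 1.30 and 0.521 in AngII libraries, and 1.09, 0.747, 0.980, 1.75 and 1.51 in AngII plus OA libraries. AngII replicates 2, 3 and 5 were below every vehicle library and the groups overlapped otherwise. The mean was 1.55 ± 0.472 FPKM in vehicle, 0.890 ± 0.337 in AngII and 1.22 ± 0.409 in AngII plus OA hearts (n = 5, SD). Its log2 difference in AngII against vehicle was -0.43 (95% CI -0.77 to -0.09, unadjusted p = 0.0172, adjusted p = 0.187, limma), and these values rested on 31 to 112 reads per library. It was 0.23 in AngII plus OA against AngII (95% CI -0.11 to 0.57).

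Lyve1, a hyaluronan receptor that lymphatic endothelium also carries, was at 13.5, 6.31, 20.2, 14.4 and 12.9 FPKM in vehicle libraries, 19.2, 58.3, 19.3, 17.4 and 15.1 in AngII libraries, and 18.1, 16.0, 18.4, 19.4 and 14.8 in AngII plus OA libraries. Only AngII replicate 2 exceeded the vehicle range. Its log2 difference in AngII against vehicle was 0.78 (95% CI 0.11 to 1.45, adjusted p = 0.222) and 0.45 without that library (adjusted p = 0.300; 0.163 to 0.397 over the alternatives). The 5 lymphatic endothelial genes summed to 45.4 to 74.5 FPKM in vehicle, 52.5 to 91.0 in AngII and 56.6 to 87.8 in AngII plus OA libraries, with 0 of 4 tested called and 2 higher at an unadjusted p under 0.05 (13.3% of all genes). Their part in the Lyve1 value was not tested.

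Folr2, a folate receptor gene, was at 0.595, 0.579, 0.632, 0.700 and 0.421 FPKM in vehicle libraries, 0.832, 0.342, 0.869, 0.502 and 0.118 in AngII libraries, and 0.662, 0.450, 0.629, 0.585 and 0.495 in AngII plus OA libraries. AngII libraries lay on both sides of the vehicle range (log2 difference -0.07, 95% CI -0.34 to 0.19, adjusted p = 0.816; 0.03 without AngII replicate 2), and AngII replicate 5 rested on 5 reads. Mrc1, the mannose receptor gene, was at 6.51, 8.24, 8.78, 7.82 and 8.50 FPKM in vehicle libraries, 9.39, 9.24, 6.68, 10.8 and 12.4 in AngII libraries, and 9.70, 7.27, 9.67, 9.53 and 8.37 in AngII plus OA libraries. Of the AngII libraries only replicate 3 lay within the vehicle range (log2 difference 0.24, 95% CI -0.05 to 0.52, adjusted p = 0.399).

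Ccr2 (ENSMUSG00000049103), the receptor with which monocytes follow the chemokine Ccl2 into tissue, was at 0.902, 0.952, 0.827, 1.08 and 0.746 FPKM in vehicle libraries, 2.67, 0.409, 1.62, 1.76 and 3.58 in AngII libraries, and 1.84, 2.16, 1.84, 1.71 and 1.30 in AngII plus OA libraries. AngII replicate 2 was the lowest of all 15 libraries and the other 4 AngII libraries were above every vehicle library. All 5 AngII plus OA libraries were above every vehicle library too, and Ccr2 was the 1 member for which those groups did not overlap (0.655% of all genes were higher in this way and 0.183% lower). The mean was 0.901 ± 0.125 FPKM in vehicle, 2.01 ± 1.19 in AngII and 1.77 ± 0.310 in AngII plus OA hearts (n = 5, SD). Ccr2 did not pass in AngII against vehicle (log2 difference 0.56, 95% CI 0.08 to 1.04, adjusted p = 0.219) but did without AngII replicate 2 (log2 difference 0.81, adjusted p = 0.0187; up to 0.402 over the other alternatives). In AngII plus OA against vehicle the difference was 0.54 (95% CI 0.06 to 1.01, adjusted p = 1.0; lowest 0.269 over the alternatives, with only the 10 libraries compared), and in AngII plus OA against AngII it was -0.02 (95% CI -0.50 to 0.45).

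Cx3cr1, the fractalkine receptor gene of patrolling monocytes and many tissue macrophages, was at 0.128, 0.877, 0.200, 0.514 and 0.343 FPKM in vehicle libraries, 1.12, 0.0180, 0.330, 0.943 and 1.76 in AngII libraries, and 0.716, 0.515, 0.548, 0.577 and 0.323 in AngII plus OA libraries. The AngII libraries spanned the lowest and the highest values of all 15, and the lowest, in replicate 2, rested on 2 reads. Its log2 difference in AngII against vehicle was 0.31 (95% CI -0.15 to 0.78, adjusted p = 0.501) and 0.51 without that library (adjusted p = 0.163; up to 0.777 over the other alternatives).

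Resident and recruited markers were set side by side within each library as the mean log2(FPKM + 1) of Lyve1, Timd4, Folr2, Cd163 and Mrc1 minus that of Ccr2, Itgam, Clec4n and Lgals3. A score over chosen genes was given no test. Ccr2, Itgam, Clec4n and Lgals3 were chosen with earlier results known, and each had a difference above 0 in AngII against vehicle. A lower score in AngII libraries was therefore favoured by the choice and is no evidence of a shift between kinds of macrophage. Neutrophils also carry Itgam, and Clec4n and Lgals3 are listed below as genes of damaged tissue. It was 0.86, 0.43, 0.47, 0.76 and 0.69 in vehicle libraries, 0.12, 0.22, 0.47, 0.11 and -0.42 in AngII libraries, and 0.25, 0.22, 0.41, 0.42 and 0.41 in AngII plus OA libraries. AngII replicate 3 overlapped the vehicle range and the other 4 AngII libraries lay below it, as did all 5 AngII plus OA libraries. The highest AngII plus OA library (0.421) was only just below the lowest vehicle library (0.433). In AngII replicate 2 the score held the highest Lgals3 (43.6 FPKM) and Itgam (3.53) of its group beside the lowest Ccr2 (0.409) of all libraries. The mean score was 0.64 in vehicle, 0.10 in AngII and 0.34 in AngII plus OA hearts. Its sign in AngII depended on the pseudocount, since a pseudocount of 0.1 gave -0.08. The ratio of Ccr2 to Timd4 was 0.356 to 1.04 in vehicle, 0.662 to 6.86 in AngII and 0.856 to 2.89 in AngII plus OA libraries. These genes differed in opposite directions in AngII against vehicle (log2 differences 0.56 and -0.43), so a higher ratio was favoured by the pair. It is no evidence of a shift between kinds of macrophage either. Of the other resident markers, Cd163 (0.90), Lyve1 (0.78) and Mrc1 (0.24) differed upward and Folr2 (-0.07) downward.

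**Figure D4:**
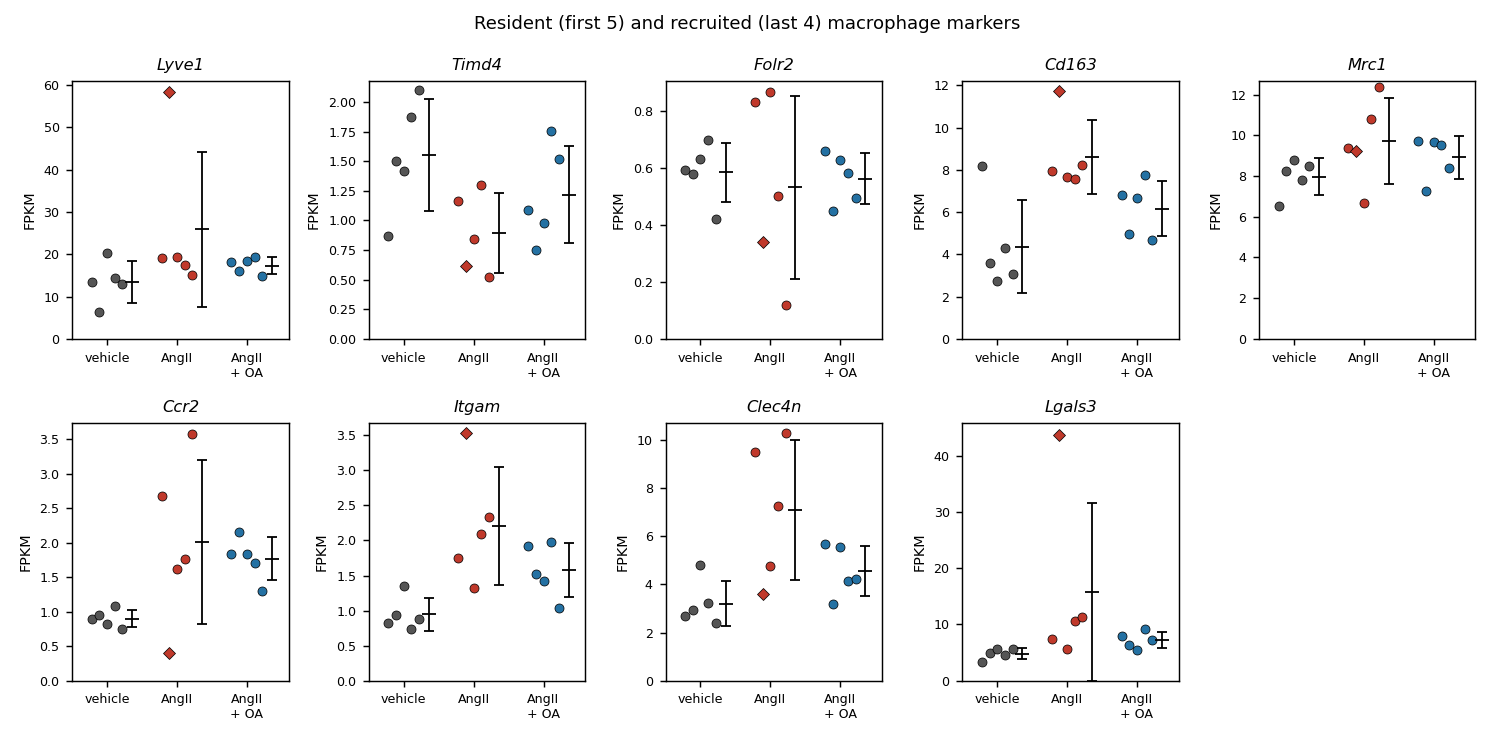
FPKM of resident markers and of the markers set against them, by group, with a point per library and bars for the mean ± SD (n = 5, lower ends drawn no lower than 0); the diamond is AngII replicate 2. That library is the highest AngII point for Lyve1 (58.3), Cd163 (11.7), Itgam (3.53) and Lgals3 (43.6) and the lowest for Ccr2 (0.409).

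Of the 3 clearance receptors, 2 were tested and neither was called. Mertk, which encodes a kinase receptor for engulfing dying cells, was at 3.11 ± 0.722 FPKM in vehicle, 4.13 ± 1.10 in AngII and 3.30 ± 0.378 in AngII plus OA hearts (n = 5, SD; adjusted p = 0.319 in AngII against vehicle). Vsig4, a complement receptor gene, reached 10.9 FPKM in AngII replicate 2 and 1.89 to 3.00 in the other AngII libraries, against 0.775 to 4.41 in vehicle (log2 difference 0.49, and 0.14 without replicate 2). Siglec1, a sialic acid receptor gene, was at 0.554 ± 0.149 FPKM in AngII and 0.437 ± 0.188 in AngII plus OA hearts.

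Among 5 genes linked to macrophages of damaged or lipid-laden tissue, 1 rose under AngII (1.27% of all genes). All 5 differences were above 0 (65.7% of all genes), with a median of 0.69. Cd38 (ENSMUSG00000029084), the ectoenzyme that consumes NAD, was at 5.07, 6.92, 6.94, 6.70 and 4.83 FPKM in vehicle libraries, 11.5, 10.3, 7.47, 12.3 and 10.9 in AngII libraries, and 6.60, 6.32, 5.29, 7.76 and 6.20 in AngII plus OA libraries. Vehicle and AngII did not overlap, and 4 of 5 AngII plus OA libraries were below the lowest AngII library and within the vehicle range. Cd38 rose from 6.09 ± 1.05 to 10.5 ± 1.84 FPKM (SD, n = 5; log2 difference 0.69, SE 0.14, adjusted p = 0.0236), and the call was lost without AngII replicate 1, 4 or 5 or vehicle replicate 5 (adjusted p up to 0.0678), without a filter (0.0522) or with only the 10 libraries compared (0.0746). In AngII plus OA hearts it was at 6.44 ± 0.887 FPKM, a log2 difference of -0.62 from AngII (95% CI -0.91 to -0.33), which had the smallest adjusted p of the members in that comparison, 0.574. Its difference from vehicle was 0.07 (95% CI -0.22 to 0.36). Lymphocytes and some stromal cells also carry Cd38.

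Clec4n, which encodes the fungal pattern receptor dectin-2, was at 2.67, 2.95, 4.79, 3.21 and 2.38 FPKM in vehicle libraries, 9.48, 3.60, 4.76, 7.25 and 10.3 in AngII libraries, and 5.68, 3.18, 5.55, 4.14 and 4.21 in AngII plus OA libraries. AngII replicates 1, 4 and 5 were above every vehicle library, and replicates 2 and 3 were within its range. The log2 difference was 0.89 (95% CI 0.40 to 1.38, adjusted p = 0.0692), and Clec4n passed without AngII replicate 2 (1.07, adjusted p = 0.0206; up to 0.169 over the other alternatives). Lgals3, the galectin-3 gene, was at 4.84 ± 0.976 FPKM in vehicle and 7.26 ± 1.39 in AngII plus OA hearts. In AngII libraries it was at 7.41, 43.6, 5.62, 10.6 and 11.4 FPKM, so that replicate 2 carried the mean of 15.7. Its log2 difference from vehicle was 1.16 (adjusted p = 0.129) and 0.71 without that library (adjusted p = 0.0670; 0.0456 to 0.276 over the alternatives). Gpnmb, a lysosomal glycoprotein gene, was at 2.08 FPKM in the same library and at most 0.646 in the other AngII libraries (log2 difference 0.28, and 0.07 without it). Trem2, a lipid-sensing receptor gene, was at 0.714 ± 0.336 FPKM in vehicle, 1.35 ± 0.422 in AngII and 1.06 ± 0.165 in AngII plus OA hearts (adjusted p = 0.117).

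The MHC class II genes did not pass, although all 4 differences in AngII against vehicle were above 0 (65.7% of all genes), with a median of 0.70. Of the 4, 3 were higher at an unadjusted p under 0.05 (13.3% of all genes). Cd74, the invariant chain that guards the peptide groove until the molecule reaches the endosome, was at 60.9, 62.8, 66.9, 91.9 and 70.9 FPKM in vehicle libraries, 160, 95.9, 81.8, 126 and 119 in AngII libraries, and 110, 51.1, 74.0, 99.9 and 70.4 in AngII plus OA libraries. AngII replicate 3 lay within the vehicle range and the other 4 AngII libraries were above it (log2 difference 0.69, 95% CI 0.24 to 1.14, adjusted p = 0.116). Its difference in AngII plus OA against AngII was -0.53 (95% CI -0.98 to -0.08, adjusted p = 0.737).

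H2-Aa (ENSMUSG00000036594), the alpha chain of the I-A molecule, was at 42.1, 43.3, 43.1, 69.5 and 49.9 FPKM in vehicle libraries, 93.6, 83.0, 49.3, 86.0 and 98.8 in AngII libraries, and 80.7, 35.1, 47.2, 66.1 and 51.6 in AngII plus OA libraries. The order resembled that of Cd74, with vehicle replicate 4 the highest vehicle library and AngII replicate 3 the lowest AngII library. The log2 difference was 0.70 in AngII against vehicle (95% CI 0.22 to 1.19, adjusted p = 0.134) and passed without AngII replicate 3 (adjusted p = 0.0350; up to 0.252 over the other alternatives). It was -0.56 in AngII plus OA against AngII (95% CI -1.04 to -0.08). H2-Ab1, the matching beta chain, was at 35.2 ± 9.13 FPKM in vehicle, 51.4 ± 16.6 in AngII and 40.5 ± 12.7 in AngII plus OA hearts (n = 5, SD; adjusted p = 0.319). H2-Eb1, the beta chain of I-E, was at 49.7 ± 15.1, 88.9 ± 24.8 and 59.7 ± 17.9 FPKM in the same order (adjusted p = 0.111, and 0.0356 without AngII replicate 3, up to 0.211 over the other alternatives).

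**Figure D5:**
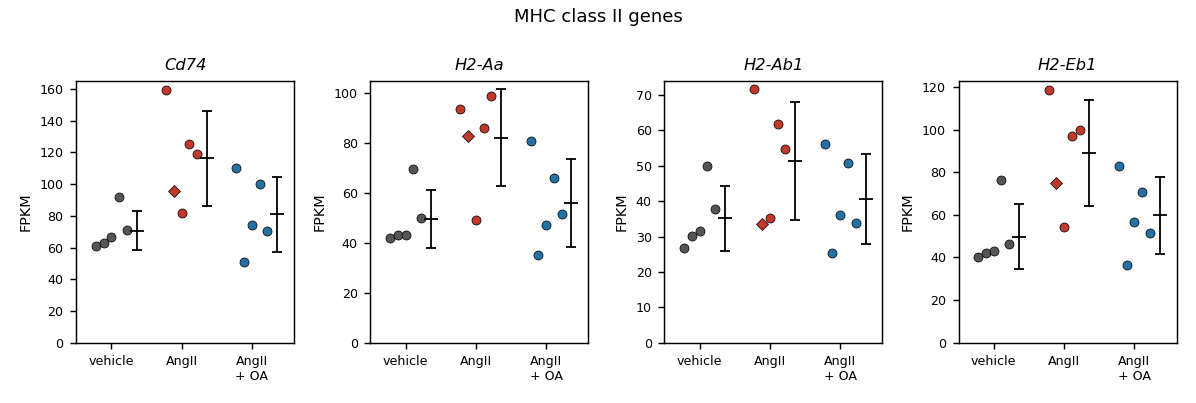
FPKM of Cd74, H2-Aa, H2-Ab1 and H2-Eb1 by group, with a point per library and bars for the mean ± SD (n = 5); the diamond is AngII replicate 2. Vehicle replicate 4 is the highest vehicle point and AngII plus OA replicate 2 the lowest of all 15 libraries in each of the 4 panels.

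Class II promoters are known for an X box bound by RFX proteins and a Y box bound by NF-Y, through which the coactivator CIITA acts. The RefSeq windows (GRCm38.p6) of H2-Aa, reverse strand at chr17:34287774-34288073, and H2-Eb1, forward strand at chr17:34305617-34305916, are shown because both hold the Y box letters GATTGG, in capitals (CCAATC on the other strand), as is the X box core AGCAAC where it occurs.
H2-Aa: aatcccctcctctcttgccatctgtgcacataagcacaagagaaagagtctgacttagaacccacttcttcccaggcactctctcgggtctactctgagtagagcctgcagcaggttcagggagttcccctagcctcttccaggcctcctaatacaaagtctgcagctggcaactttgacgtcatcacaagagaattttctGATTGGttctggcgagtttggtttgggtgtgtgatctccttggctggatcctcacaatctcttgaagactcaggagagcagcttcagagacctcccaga
H2-Eb1: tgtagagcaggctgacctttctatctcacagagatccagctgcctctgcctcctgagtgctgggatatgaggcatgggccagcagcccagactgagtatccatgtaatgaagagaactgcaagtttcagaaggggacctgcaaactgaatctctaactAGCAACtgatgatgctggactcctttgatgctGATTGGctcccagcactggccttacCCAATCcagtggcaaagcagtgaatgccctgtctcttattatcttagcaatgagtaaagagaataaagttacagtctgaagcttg
Relative to the start site, GATTGG began at -49 in H2-Aa and at -60 and -35 in H2-Eb1, and AGCAAC at -92 in H2-Eb1. Searched on both strands, GATTGG was in 6 of the 26 members with a window (23.1%, against 18.2% of all genes) and AGCAAC in 7 (26.9% against 16.7%). Both occurred together in 5 of the 26 members, Cd163, Cd53, Cd68, Trem2 and H2-Eb1, the last being the only class II gene among them. They did so in 2.64% of all 32851 promoters. That share counts promoters, where a gene can have more than 1, so it cannot be set directly against the count of member genes. Only exact letters were searched, and the H2-Aa window reads ggcaac before its GATTGG, which was not counted as AGCAAC. A window without a match is therefore not shown to lack an X box, and a match does not show that a factor binds there. The E box letters CACGTG were in 0 of 26 members and 8.09% of all genes.

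Of 11 other genes of class II presentation tested, all had a difference above 0 in AngII against vehicle (65.7% of all genes). Of these 1 rose (1.27% of all genes), Ctss, the cathepsin that trims the invariant chain. Ctss was at 15.4 ± 5.75 FPKM in vehicle, 41.1 ± 22.1 in AngII and 23.2 ± 5.94 in AngII plus OA hearts (n = 5, SD; log2 difference 1.30, SE 0.29, adjusted p = 0.0371), was at 79.8 FPKM in AngII replicate 2, and was called in 3 of 10 fits that left out a library. Without AngII replicate 2 the AngII mean of Ctss was 31.4 ± 5.35 FPKM (n = 4, SD; log2 difference 1.03, adjusted p = 0.0439; up to 0.112 over the alternatives). The list's median difference was 0.25. Dendritic cell genes, another source of class II, summed to 7.02 to 9.49 FPKM in vehicle and 7.15 to 12.3 in AngII libraries. Of 4 tested, 0 were called and 1 was higher at an unadjusted p under 0.05 (13.3% of all genes). The 3 tested B cell genes gave 0 calls and 0 at an unadjusted p under 0.05. Without AngII replicate 2 the dendritic cell gene Clec9a was called higher (log2 difference 0.67, limma adjusted p = 0.0297, up to 0.170 over the alternatives). In that fit Zbtb46 (0.09), Batf3 (0.05) and Cd209a (-0.19) were not called. The part of dendritic cells and B cells in the class II values was not tested.

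The class I pathway, found in nearly all cells, had 9 of 9 differences above 0 (65.7% of all genes) with a median of 0.48. It had 0 calls and 4 genes higher at an unadjusted p under 0.05 (13.3% of all genes). B2m, the light chain of class I, was at 759 ± 112 FPKM in vehicle, 1255 ± 477 in AngII and 789 ± 174 in AngII plus OA hearts, and the heavy chain gene H2-D1 at 141 ± 12.9, 242 ± 85.2 and 152 ± 34.4 FPKM (SD, n = 5). AngII replicate 2 was the highest library for both, and without it the AngII means were 1076 ± 301 FPKM for B2m and 209 ± 52.3 for H2-D1 (n = 4, SD). Growth factors and attractants of macrophages gave 0 calls of 7 tested. At an unadjusted p under 0.05, 1 was higher and 1 lower (13.3% and 3.29% of all genes). Csf1, the main macrophage growth factor gene, was at 10.1 ± 2.31, 10.2 ± 1.96 and 11.2 ± 2.32 FPKM in vehicle, AngII and AngII plus OA hearts, and the monocyte attractant gene Ccl7 at 15.1 ± 13.8, 4.80 ± 3.98 and 7.23 ± 5.11 FPKM. The attractant genes did not share a direction. Without AngII replicate 2, Ccl12 was called higher (log2 difference 1.19, limma adjusted p = 0.0374, up to 0.679 over the alternatives). In that fit Cx3cl1 (0.31) was above 0, and Ccl2 (-0.53) and Ccl7 (-0.99) were below, without a call.

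All 3 genes of the complement component C1q (C1qa, C1qb and C1qc), made largely by macrophages, rose (1.27% of all genes), with a median difference of 0.79. C1qb was called in 10 of the 10 fits that left out a library, C1qa in 3 and C1qc in 2. The 3 tested monocyte genes gave 0 calls with 1 higher at an unadjusted p under 0.05 (13.3% of all genes). Plac8 was at 0.418 ± 0.223 FPKM in vehicle and 2.25 ± 1.59 in AngII hearts, and Ly6c2 at 1.61 ± 0.830 and 1.89 ± 0.278. The mean of Plac8 was 1.60 ± 0.768 without AngII replicate 2 (n = 4, SD). Il1b, the third monocyte gene, differed the other way, at 1.79 ± 0.656 FPKM in vehicle, 1.05 ± 0.466 in AngII and 0.994 ± 0.936 in AngII plus OA hearts (log2 difference -0.43 in AngII against vehicle, adjusted p = 0.407). Of the other cell type lists, 2 of 6 fibroblast genes rose (1.27% of all genes), the collagen genes Col1a1 and Col3a1. All 6 fibroblast differences were above 0 (median 0.46), as were 65.7% over all genes. No endothelial (5 tested), cardiomyocyte (6), NK cell (2) or mast cell (3) gene was called. All 6 cardiomyocyte differences were below 0 (median -0.15), where 65.7% of all genes were above 0. Of these 6, 1 was lower at an unadjusted p under 0.05 (3.29% of all genes). The mast cell list had 1 gene lower at that p, and the endothelial and NK cell lists 1 each higher (13.3% of all genes). The cardiomyocyte differences depended on AngII replicate 2. Without it Actc1 (0.19) and Ryr2 (0.02) were above 0, and Myh6 (-0.02), Tnnt2 (-0.03), Myl2 (-0.13) and Tnni3 (-0.29) were below.

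In both comparisons with AngII plus OA, no gene of these lists was called. Against AngII, 2 of the 6 cardiomyocyte genes were higher and 3 of the 6 fibroblast genes lower at an unadjusted p under 0.05 (1.35% and 5.25% of all genes). In the endothelial list 4 of 5 differences were below 0, with 2 at that p, where 36.6% of all genes were above 0. In the class I list 9 of 9 were below 0, with 4 at that p, and in the C1q list 3 of 3, with 1. Against vehicle, all 6 differences of both the cardiomyocyte list (median 0.13) and the fibroblast list (median 0.22) were above 0 (58.3% of all genes). All 3 C1q genes were higher there at an unadjusted p under 0.05 (2.58% of all genes). In 2 of them the groups did not overlap (0.655%). The part of these other cell types in the members' values was not tested in any comparison.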

How the data were processed

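Poly(A) RNA of 15 mouse ventricles was sequenced on an Illumina HiSeq2000, per the labels' protocols. The authors deposited a table of FPKM for 36653 gene identifiers. The submitters' processing notes name HISAT2 2.0.4 and the build mm8. Which counter, annotation, strandedness and FPKM software were used is not given in the sources at hand. Groups came from the sample titles, which matched every column.

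Symbols came from GENCODE M21 (36464 identifiers matched), which belongs to another build than mm8. Its exon lengths were used as well, to recover reads, and no genome positions are printed from it. Promoter windows are RefSeq's on GRCm38.p6. The depth was read from FPKM steps: 28 of 37 members gave whole reads within 0.02 with the annotated exon lengths. All replicate pairs differed by more than sampling noise (chi-square over degrees of freedom at least 24.6).

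Tests used limma 3.58.1 (R 4.3.3) with a mean-variance trend on log2(FPKM + 1), all 15 libraries in 1 fit, genes with a mean of at least 0.5 FPKM (13121), 2-sided, with Benjamini-Hochberg adjustment per comparison and calls at an adjusted p under 0.05. A difference on this scale understates the change of low genes. The script was tested on simulated data. Alternatives changed the pseudocount, filter, scaling, variance estimate, replicate block, libraries fitted and each replicate. All 37 members are named, in order of role, with values per library for those called in a comparison and for fixed markers; from each other list up to 4 called genes or the 2 most abundant are named; 1 list, of signalling and transcription partners, is not reported here. Values per library of Cd14, Clec4n and Lgals3 were added after they had been seen. Also added in this way were values of the cardiomyocyte and dendritic cell genes and of Ccl12, Ccl2, Cx3cl1 and Il1b. The members and lists were chosen with earlier results of these data known.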

Additional observations from a re-analysis of the deposited data

Results flagged for a closer look

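In 15 of 111 sets of 5 values (37 members in 3 groups), the highest or lowest library lay further from its nearest neighbour than 0.71 of the group's range, the limit at which chance singles out about 1 in 20 sets. Values from the same library are not independent. AngII replicate 2 stood out upward in 6 members: Lyve1 at 58.3 FPKM against at most 19.3 in the other AngII libraries, Lgals3 at 43.6 against at most 11.4, Cd14 at 34.3 against at most 15.2, Cd163 at 11.7 against at most 8.22, Vsig4 at 10.9 against at most 3.00 and Gpnmb at 2.08 against at most 0.646. Vehicle replicate 4 stood out upward in 4 members, with H2-Eb1 at 76.5 FPKM against at most 46.5, H2-Aa at 69.5 against at most 49.9, Ptprc at 0.985 against at most 0.702 and Siglec1 at 0.664 against at most 0.333. AngII plus OA replicate 2 stood out downward in Lyz2, at 137 FPKM against at least 259, and in Fcgr3, at 15.9 against at least 21.5. Single genes stood out upward in vehicle replicate 1 (Cd163 at 8.18 FPKM against at most 4.28), vehicle replicate 3 (Cd53 at 13.7 against at most 6.92) and AngII replicate 1 (Itgb2 at 5.31 against at most 3.95).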

How the results depend on the processing

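In AngII against vehicle, the number of members called higher was 7 and became 3 without a filter on low values, 4 after quantile normalization, 4 with FPKM rescaled without mitochondrial genes and 2 with only the 10 libraries compared, and it ranged from 2 to 15 when each replicate was left out. Genes called higher among all tested genes, 166, became 63 without a filter, 69 after quantile normalization and 103 with libraries shifted to a common median. Their number was 77 with rescaled FPKM, 63 with only the 10 libraries, and 43 to 366 when each replicate was left out. Genes called lower, 31, became 9 without a filter, 57 with shifted libraries and 7 with only the 10 libraries, and 6 to 59 when each replicate was left out. The causes of these moves were not tested. With the replicate number as a block, 1 member (Mpeg1), 32 higher and 6 lower genes were called. The numbers were not taken to pair the libraries: of 15 same-numbered pairs, 6 had deviations correlated above 0.1 (r from -0.35 to 0.43), and 1 library of 15 correlated best with its own number. With the block, 0 members were called in the other comparisons too.

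In AngII plus OA against AngII, leaving out each replicate gave 0 to 1 tested genes called lower, the 1 without AngII replicate 3. In either comparison with AngII plus OA, 0 members were called under any alternative. The median difference over the members kept its sign under all alternatives, from 0.47 to 0.70 in AngII against vehicle, -0.34 to -0.20 in AngII plus OA against AngII and 0.20 to 0.37 in AngII plus OA against vehicle. Resident minus recruited markers averaged 1.04 in vehicle, 0.588 in AngII and 0.787 in AngII plus OA hearts with a minimum mean of 1 FPKM, which drops Folr2, and -0.0757 in AngII hearts with a pseudocount of 0.1. Depth limits the weakest members: Folr2 rested on as few as 5 reads and Cx3cr1 on 2. Missing calls in comparisons with AngII plus OA do not show that the groups were alike.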
